A study of Abies pinsapo with 12 samples.

Results

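The comparison concerns needles of adult Spanish fir (Abies pinsapo), a drought-sensitive conifer of the mountains of southern Spain, on trees that had both low light and low competition for water. These trees stood in stands thinned in 2004 and were covered by a mesh that brought their light down towards that of unthinned forest. Their needles gave 2 libraries in August 2016 and 2 in May 2017, chosen by their labels, so 4 of the 12 libraries of the series are described here. The other 8 libraries come from thinned trees without a mesh and from unthinned control trees, each with 2 libraries per date, and serve to ask which date differences of the shaded trees were also present under more light or more competition. Each treatment had 3 plots of 100 m2, all trees were field-grown, and the labels do not say whether the replicates of a date came from different trees, or whether a tree was sampled on both dates. P-values therefore measure the spread between these libraries, which may be technical. August came from one year and May from the next, so season, year and any batch tied to the date cannot be told apart.

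Needles of an evergreen conifer live for several years and change their activity with the season. In a Mediterranean mountain climate, May falls in the moist growing season, when buds open and shoots extend, and August falls in the summer drought, when stomata close for much of the day and light absorbed beyond what photosynthesis can use has to be dissipated. Shade lowers that excess of light, and thinning leaves more soil water to each remaining tree.

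Transcripts are assembled sequences with identifiers in the form of the Trinity assembler, and those with equal DN and c numbers belong to 1 component, a group of sequences assembled together. The deposited table does not pair them with gene names, so no function, pathway or tissue marker is given for any transcript, and the needle label could not be checked against marker genes. Values were taken, from the steps between them, to be TPM, the abundance of a transcript relative to all others and corrected for its length, times 1 factor per library, and are called scaled TPM below. Sequencing depth is unknown, since TPM keeps none. Of 329801 transcripts, 14422 in 9413 components stood at 10 or more in at least 2 of the 4 shaded libraries and were tested. They held between 83.4% and 85.1% of the summed value of each shaded library. Needles are bulk tissue, so fewer cells of a type and less RNA per cell cannot be told apart in any difference below.

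The 4 shaded libraries paired by date. Taken over the tested transcripts, themselves no replicates of each other, the 2 August libraries correlated at r = 0.880 and the 2 May libraries at r = 0.882, against 0.704 to 0.777 between an August and a May library. Some libraries of other treatments on the same date came as close. Shaded August replicate 2 reached 0.892 with thinning August replicate 1, and shaded May replicate 1 reached 0.883 with control May replicate 2. Shaded August replicate 1 and shaded May replicate 2 were closest to their own replicate. Between replicates the SD, as a root mean square over transcripts, was 0.478 (log2 scale) for August and 0.492 for May. Replicates differed by 2-fold or more in 1064 transcripts (7.38%) in August and in 1269 (8.80%) in May. The May replicates of the other treatments were less alike, with such differences in 4626 transcripts (32.1%) in thinned trees without a mesh and in 1938 (13.4%) in control trees. Thinning May replicate 2 correlated at r = 0.580 and 0.706 with the 2 shaded May libraries and at 0.853 and 0.661 with the 2 control May libraries, whereas thinning May replicate 1 reached 0.910 and 0.845 with the shaded and 0.772 and 0.853 with the control May libraries. Thinning May replicate 1 stood apart in another way, with 208032 transcripts above 0, against 81710 to 117855 in the other 11 libraries, and with 67.2% of its summed value in the tested transcripts, against 75.1% to 85.1%. The part of these features of either library in the results was not tested. Some results that rest on thinning May libraries are therefore given for each of them below, and the others rest on both together.

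In shaded trees the dates differed in 421 of the 14422 tested transcripts (2.92%), in 313 components, with 186 higher in August (1.29%) and 235 lower (1.63%) (limma on log2(scaled TPM + 1), all 12 libraries in 1 fit with a shared spread, Benjamini-Hochberg adjusted p under 0.05). Among these calls the higher transcripts changed more, by a median log2 fold change of 2.06, and 98 of them were 4-fold or more higher. The lower transcripts had a median of -1.46, and 52 were 4-fold or more lower. Among all tested transcripts whose libraries of one date lay above those of the other, called or not, the sizes were alike. Their median was 0.605 log2 units for those higher in August and 0.613 for those lower. In all 421 both libraries of one date lay above both of the other; over all tested transcripts both August libraries lay above both May libraries in 4132 (28.7%) and below them in 4478 (31.0%). Of the higher ones 104 stood at 10 or more in August only, and of the lower ones 77 in May only, so that they passed the filter on low values through the date on which they were high. A total of 214 calls shared a component with another call, and none of the 106 components with 2 or more calls held calls in both directions.

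The split into directions depends on the scaling. The library factor was 0.930 and 0.883 in August and 1.13 and 1.16 in May. With it, 44.2% of the calls were higher in August, and without it 744 of 893 calls (83.3%) were, and the median log2 fold change of all tested transcripts was then 0.31, against -0.02 with it. After quantile normalization, which gives all libraries the same distribution of values, 45.6% of the 722 calls were higher in August. Leaving out any 1 of the 4 shaded libraries, so that a date had 1 library, left 0 calls (limma; 1704 to 2251 transcripts at an unadjusted p under 0.05). The count also changed with the libraries in the fit, which alter both the shared spread and its residual degrees of freedom. From the 4 shaded libraries alone, with 2 degrees of freedom, 63 transcripts were called, against 421 with 6. Without the 4 thinning libraries, a fit chosen after seeing the data, 877 were called with 4 degrees of freedom. The part of either in these counts was not tested.

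**Figure D1:**
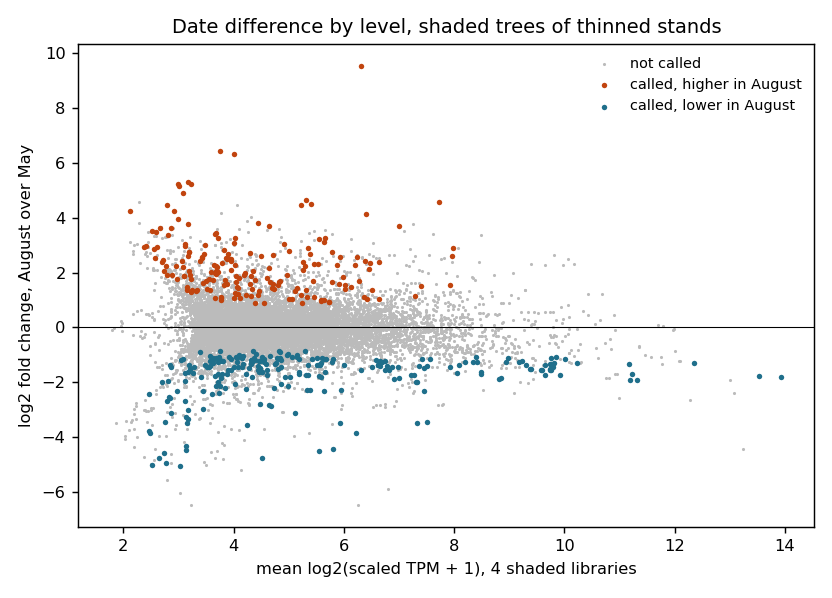
Each point is 1 of the 14422 tested transcripts, with its mean log2(scaled TPM + 1) over the 4 shaded libraries on the x axis and its log2 fold change of August over May on the y axis. The 186 calls higher in August lie mostly at low and middle levels, while calls lower in August reach the right end of the axis.

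The largest rises in August were in transcripts close to 0 in May. TRINITY_DN15726_c0_g1 stood at 1730.2 and 2694 scaled TPM in August, against 1.68 and 2.12 in May (log2 fold change 9.54, SE 1.38; limma adjusted p = 0.022). TRINITY_DN4825_c0_g1 stood at 137 and 112 in August, against 0.836 and 0.139 in May (log2 fold change 6.44, SE 0.98; limma adjusted p = 0.024). Both transcripts were at 2.12 or below in each May library and at 112 or above in each August library. TRINITY_DN3981_c1_g1 was at 48.9 and 64.4 in August, and was listed at 0 and at 1.06 in May (log2 fold change 5.31, SE 0.55). TRINITY_DN9091_c1_g1 was at 62.7 and 51.6 in August, and was listed at 0 and at 1.33 in May (log2 fold change 5.24, SE 0.94). In TRINITY_DN323_c0_g1 the August libraries were less alike, at 28.1 and 72.4, against 0.486 and 0.602 in May (log2 fold change 4.90, SE 0.85). Folds this large depend on the pseudocount because the May values are near 0: with a pseudocount of 8 in place of 1, the 5 log2 fold changes were 7.77, 3.96, 2.91, 2.91 and 2.66, and the call of TRINITY_DN4825_c0_g1 was lost. With separated libraries and a mean of 50 or more on the higher date, 70 calls higher in August and 114 lower were eligible for this ranking.

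The largest falls left transcripts at 20.3 or below in August. TRINITY_DN1186_c1_g2 was at 1.01 and listed at 0 in August, against 24.5 and 86.6 in May (log2 fold change -5.06, SE 0.88; limma adjusted p = 0.032). TRINITY_DN10250_c0_g1 was at 6.97 and 1.40 in August, against 59.5 and 233 in May (log2 fold change -4.77, SE 0.91). In both, the 2 May libraries differed several-fold, with replicate 2 the higher. TRINITY_DN4525_c0_g1 was at 11.9 and 6.39 in August, against 222 and 228 in May (log2 fold change -4.53, SE 0.82), with May libraries that were nearly equal. TRINITY_DN4999_c0_g1 was at 13.5 and 8.88 in August, against 141 and 481 in May (log2 fold change -4.45, SE 0.64). TRINITY_DN1186_c0_g1 was at 20.3 and 16.7 in August, against 153 and 524 in May (log2 fold change -3.87, SE 0.61). Those last 2 transcripts had nearly the same profile, again with May replicate 2 above replicate 1. From the 4 shaded libraries alone, 4 of these 5 falls missed the threshold, all but TRINITY_DN4525_c0_g1 (limma adjusted p between 0.061 and 0.071), whereas 4 of the 5 rises kept their call, all but TRINITY_DN323_c0_g1 (limma adjusted p = 0.055).

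**Figure D2:**
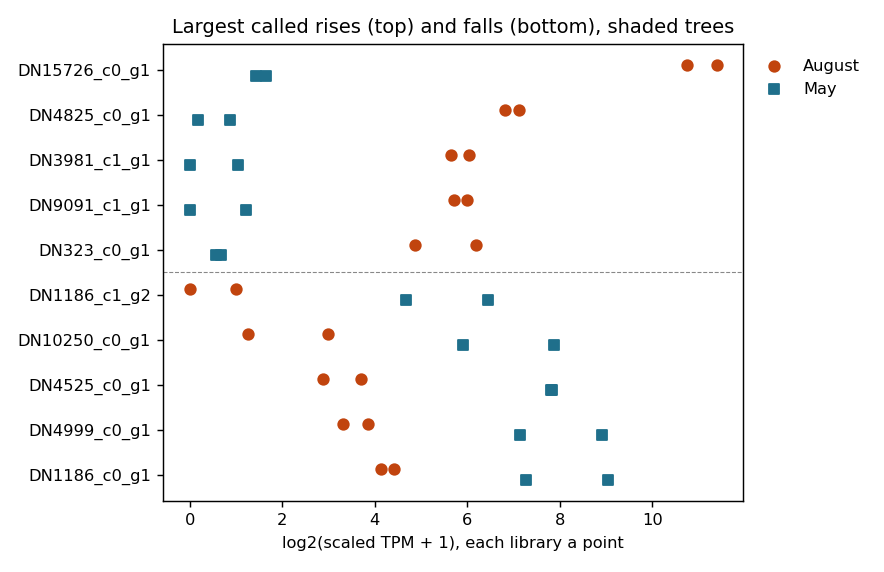
The x axis gives log2(scaled TPM + 1), and each row is 1 of the 5 called transcripts with the largest rise (top) or fall (bottom) in August; circles are the 2 August libraries and squares the 2 May libraries. August and May points do not overlap in any row, and the May squares of TRINITY_DN4999_c0_g1 and TRINITY_DN1186_c0_g1 lie further apart than their August circles.

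Each May library was also set against both August libraries on its own. Both August libraries were 2-fold or more higher than May replicate 1 in 1133 transcripts and higher than replicate 2 in 733, and 515 (3.57%) met this for both, which is 45.5% of the first list and 70.3% of the second. In the other direction there were 969 and 844, with 547 (3.79%) in both, which is 56.4% and 64.8% of the lists. May replicate 1 thus differed from August in more transcripts than replicate 2 did, with the wider gap among those higher in August.

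Very abundant transcripts took a much larger share of the May needles. In shaded trees the top 10 transcripts by value held 5.30% and 5.14% of a library's summed value in August, against 14.8% and 15.4% in May. The 100 most abundant held 19.3% and 18.2% in August, against 30.4% and 31.5% in May. These shares do not depend on the library factor. No test is given, because 2 against 2 libraries cannot go below an exact permutation p of 0.33. In May the 10 most abundant held 8.61% and 7.53% in thinned trees without a mesh and 11.1% and 11.7% in control trees, so both shaded libraries had the highest shares of the 6 May libraries. The corresponding August shares were 6.05% and 5.42% in thinned trees without a mesh and 5.35% and 6.09% in control trees.

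**Figure D3:**
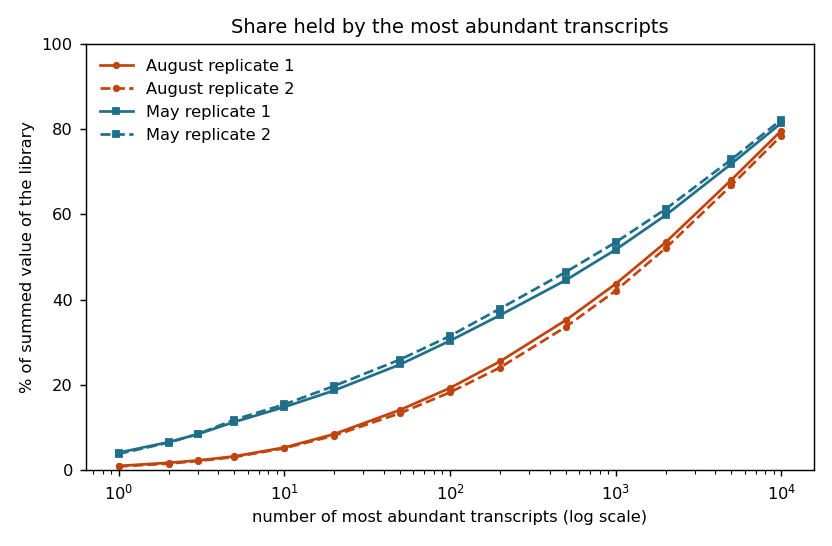
The y axis gives the percent of a library's summed value held by its most abundant transcripts, whose number is on the log-scaled x axis, with 1 line for each of the 4 shaded libraries. Both May lines lie above both August lines, by the widest relative margin at the left end, where the single most abundant transcript held 0.974% and 0.861% in August and 4.10% and 3.82% in May.

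The transcript with the highest May mean was TRINITY_DN3031_c1_g1, at 2560 and 1672 scaled TPM in August, against 46299.7 and 44196 in May. Its log2 fold change was -4.45 (SE 1.12) and missed the threshold in the 12-library fit (limma adjusted p = 0.074), while the fit of the 4 shaded libraries alone called it (limma adjusted p = 0.045). In thinned trees without a mesh it stood at 2009 and 2319.9 in August, against 29048 and 1390.4 in May. In control trees it stood at 4973 and 3299 in August, against 19968 and 30737 in May. Thinning May replicate 2 was thus the 1 May library of 6 in which this transcript was as low as in August.

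TRINITY_DN7298_c0_g1 was the most abundant transcript of both shaded August libraries, at 9064 and 7608, and reached 27914 and 30466 in May. The call was of a lower level in August (limma adjusted p = 0.029), with a log2 fold change of -1.81 (SE 0.30), but with quantile-normalized values it had a log2 fold change of 0.35 and no call (limma adjusted p = 0.42). TRINITY_DN1564_c0_g1 was at 3564 and 3105 in August, against 8336 and 8051 in May (log2 fold change -1.30, SE 0.22; -0.30 and not called after quantile normalization). TRINITY_DN2528_c1_g1 was at 1618 and 1046 in August, against 5171 and 4783 in May (log2 fold change -1.93, SE 0.24; -1.17 and not called after quantile normalization). These 3 are the most abundant calls lower in August when each component is counted once. The replicates of a date were close, apart from the 1618 and 1046 of TRINITY_DN2528_c1_g1 in August.

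Among the most abundant calls higher in August, TRINITY_DN33358_c0_g1 stood at 972 and 1110.3 in August, against 42.3 and 42.7 in May (log2 fold change 4.58, SE 0.74). TRINITY_DN1309_c0_g1 stood at 606 and 770.0 in August, against 69.7 and 120 in May (log2 fold change 2.89, SE 0.60; limma adjusted p = 0.046). The call of TRINITY_DN1309_c0_g1 was lost without any 1 of 6 libraries of the other treatments, the exceptions being the 2 thinning May libraries, and in the fit of the 4 shaded libraries alone. TRINITY_DN1262_c0_g2, the third most abundant August transcript when each component is counted once, did not separate the dates, at 4192 and 3744 in August, against 4003 and 4256 in May.

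TRINITY_DN2293_c0_g1 and TRINITY_DN2293_c0_g2, of 1 component, were among the most abundant transcripts of shaded trees on either date but not called in the fit of all libraries. The first was at 4149 and 4231 in August, against 14610.5 and 17665 in May (log2 fold change -1.94, SE 1.23; limma adjusted p = 0.43). The second was at 2560 and 5413 in August, against 17949 and 21733 in May (log2 fold change -2.41, SE 1.24). From the 4 shaded libraries alone the first was called (limma adjusted p = 0.047) and the second was not (limma adjusted p = 0.064). Without the 4 thinning libraries, a fit chosen after seeing the data, both were called (limma adjusted p = 0.026 and 0.032). Of 23 alternative settings, the first was called in 2 and the second in 1. In thinned trees without a mesh the first was at 6749 and 1218 in August, against 2084 and 111 in May. In control trees it was at 809 and 1299.9 in August, against 7629 and 9872 in May. Both shaded May libraries were thus above every library of the other treatments, and replicates of thinned trees without a mesh differed several-fold, which the shared spread takes in.

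By level, calls lower in August were concentrated at the top. Of the 75 tested transcripts with a mean of 1000 or more over the 4 libraries, 1 was called higher (1.33%) and 11 lower (14.7%), against 1.63% called lower among all tested. Of the 465 with a mean between 200 and 1000, 5 were called higher and 36 lower (7.74%). Of the 11475 under 50, 137 were called higher and 141 lower (1.23%). By a comparison added after the data had been seen, the gradient was also present without the library factor, where 9 of the 75 most abundant and 90 of the 11475 under 50 (0.784%) were called lower. It was not present in the top class after quantile normalization, which gives all libraries the same distribution of values: 1 of the 75 (1.33%) and 322 of the 11475 (2.81%) were then called lower. As a group, the 235 lower transcripts made up 4.83% and 4.34% of the summed value of the August libraries, against 11.3% and 11.3% in May. The 186 higher transcripts made up 1.53% and 2.03% in August, against 0.230% and 0.263% in May.

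A small set of transcripts was close to an on or off state by date. In shaded trees 11 transcripts (0.0763%), in 9 components, stood at 10 or more in both August libraries and under 1 in both May libraries, and 27 (0.187%), in 25 components, showed the reverse. These sets were chosen by their values in the shaded libraries, and 8 of the 11 and 6 of the 27 were among the limma calls. All 11 August transcripts also had both August libraries above both May libraries in thinned trees without a mesh and in control trees, against 27.4% and 19.7% of all tested. They reached 10 or more in 7 and 5 of 11 cases in the 2 thinning August libraries and in 7 and 4 of 11 in the 2 control August libraries. TRINITY_DN10108_c0_g1 was at 34.5 and 65.3 in August in shaded trees, against 0.599 and 0.127 in May. It was at 80.8 and 55.1 in August in thinned trees without a mesh, against 0.873 and 0.328 in May, and at 27.8 and 62.7 in August in control trees, against 0.173 and 0.253 in May. This transcript, named after its values had been seen, kept the on or off pattern in every library of the 3 treatments, as TRINITY_DN4825_c0_g1 did.

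Of the 27 May transcripts, 12 in thinned trees without a mesh had both August libraries below both May libraries (20.6% of all tested), and in control trees 26 did (32.6% of all tested). The 2 thinning May libraries were unlike in them. Thinning May replicate 1 held 19 of the 27 at 10 or more and none under 1, while replicate 2 held 5 at 10 or more and 17 under 1, of which 13 were listed at 0. Their median was 18.9 and 18.2 scaled TPM in the shaded May libraries, 18.9 and 0.061 in the thinning May libraries, and 6.65 and 18.6 in the control May libraries. TRINITY_DN4557_c0_g1, named after its values had been seen, was listed at 0 in both shaded August libraries, against 135 and 57.0 in May. In thinned trees without a mesh it was listed at 0 in both August libraries, against 209.5 and 0 in May, and in control trees at 0 in both August libraries, against 11.5 and 133 in May. It was thus listed at 0 in 6 of 6 August libraries and in 1 of 6 May libraries.

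**Figure D4:**
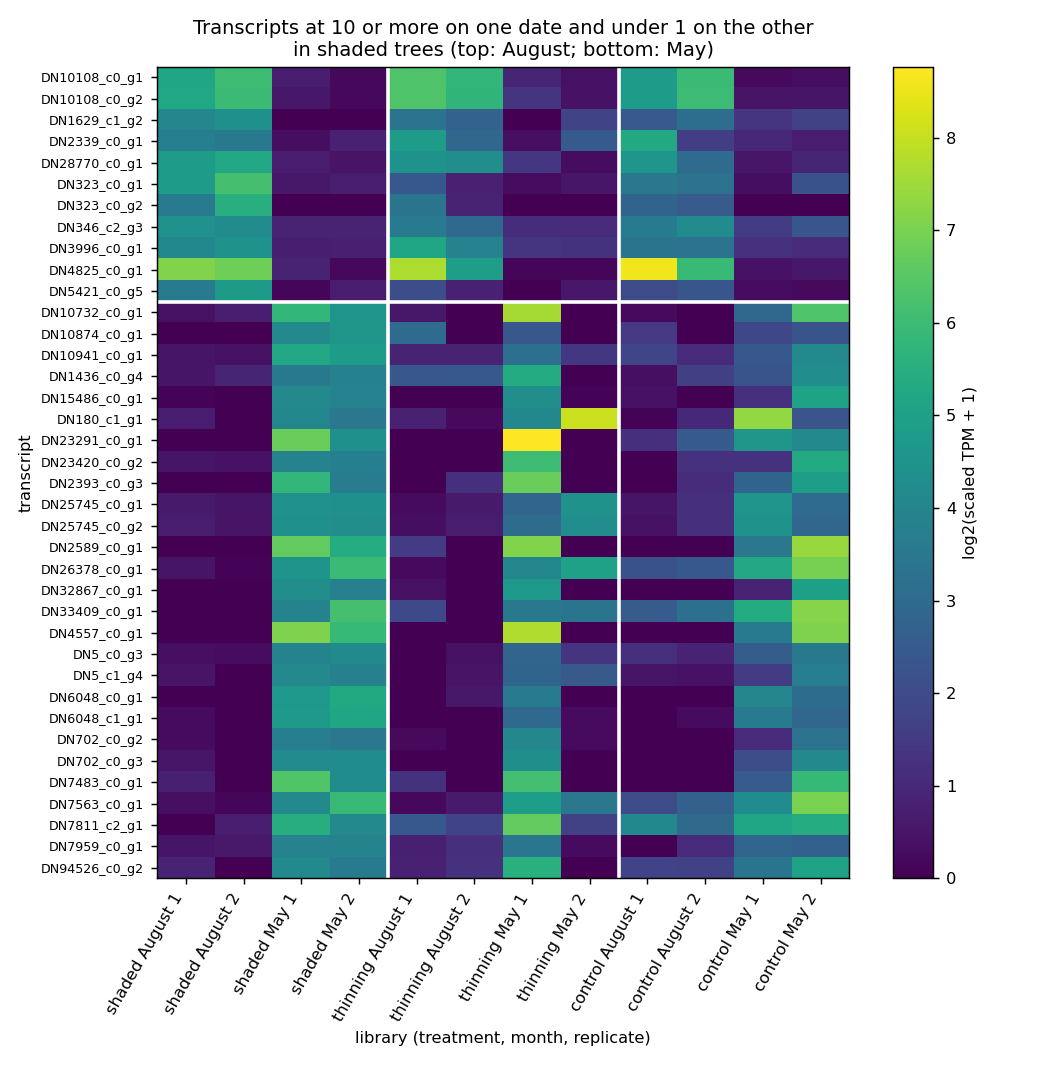
Colour gives log2(scaled TPM + 1) of the 11 transcripts at 10 or more in August and under 1 in May in shaded trees (top block) and of the 27 with the reverse pattern (bottom block), with 1 column for each of the 12 libraries. The top block shows the date pattern in all 3 treatments, while in the bottom block the column of thinning May replicate 2 is dark for most rows.

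Which date differences of the shaded trees were also present in the other 2 treatments was asked with libraries that were not part of the shaded groups but share their dates, and with them the year and any batch tied to the date. Of the 421 calls, 387 (91.9%) had the same sign in thinned trees without a mesh and 412 (97.9%) in control trees, against 63.7% and 70.5% of all tested transcripts. Both August libraries lay on the same side of both May libraries as in shaded trees in 343 calls in thinned trees without a mesh and in 377 in control trees, against 36.1% and 41.1% of all tested. In 308 calls (73.2%) this held in both treatments, against 21.2% of all tested. The opposite sign in both was found in 0 calls, against 2421 of the 14422 tested transcripts. In 9 calls, 5 higher and 4 lower in August, the dates were separated in this direction in neither treatment, against 6353 of the 14422. The other treatments' libraries helped choose the 421, because a small spread in them favours a call, so the share of 73.2% is not independent of them.

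Transcripts chosen on the shaded libraries alone give a check on that, added after the data had been seen. In 303 transcripts (2.1%) both August libraries were above both May libraries with a mean difference of 4-fold or more, and in 245 (1.7%) below. Of the 303 higher ones, 219 (72.3%) separated the dates in the same direction in thinned trees without a mesh, 196 (64.7%) in control trees and 163 (53.8%) in both. The shares of all tested with both August libraries above both May libraries were 27.4% and 19.7%. Of the 245 lower ones, 106 (43.3%) did so in thinned trees without a mesh, 190 (77.6%) in control trees and 90 (36.7%) in both, where 20.6% and 32.6% of all tested had both August libraries below. In both treatments at once, 21.2% of all tested, rises and falls together, separated the dates in the direction of the shaded trees. Among the 63 transcripts called from the 4 shaded libraries (0.437% of those tested), 29 of the 33 higher and 9 of the 30 lower ones separated the dates in both.

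This gap between rises and falls was unlike against the 2 thinning May libraries. Set against thinning May replicate 1 alone, 288 of the 303 higher and 233 of the 245 lower transcripts had the same sign in thinned trees without a mesh as in shaded trees. Set against thinning May replicate 2 alone, 242 of the higher (79.9%) and 134 of the lower ones (54.7%) did, where all tested transcripts gave 71.3% against replicate 1 and 55.5% against replicate 2. Against thinning May replicate 2, the falls of the shaded trees thus had the same sign about as often as all tested transcripts did. Whether this library or its replicate represents thinned trees without a mesh in May cannot be told from 2 libraries.

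By the tests themselves, 485 of the tested transcripts (3.36%) were called in thinned trees without a mesh and 26 (0.18%) in control trees. Both counts depend on the shared spread, which the unlike thinning May libraries enter. In the fit without the 4 thinning libraries, chosen after seeing the data, 56 were called in control trees. Of the 421 calls of shaded trees, 133 were among the first and 6 among the second, 4 in both and all in the same direction, against 3.06% and 0.159% of all tested called there in the direction of the shaded trees. August minus May averaged over both other treatments, which rests on 8 libraries, called 253 of the 421 in the same direction (60.1%, against 8.47% of all tested) and 0 in the opposite one. These were 135 of the 186 higher and 118 of the 235 lower transcripts, where the average called 4.99% of all tested higher and 3.89% lower. The changes were larger in shaded trees, where the calls were chosen: the median size over the 421 was 1.67 log2 units, against 1.02 in thinned trees without a mesh and 0.90 in control trees. Over all tested transcripts the log2 fold changes of shaded trees correlated at r = 0.494 with those of thinned trees without a mesh and at 0.608 with those of control trees, as a description over 14422 transcripts from 4 libraries on each side.

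**Figure D5:**
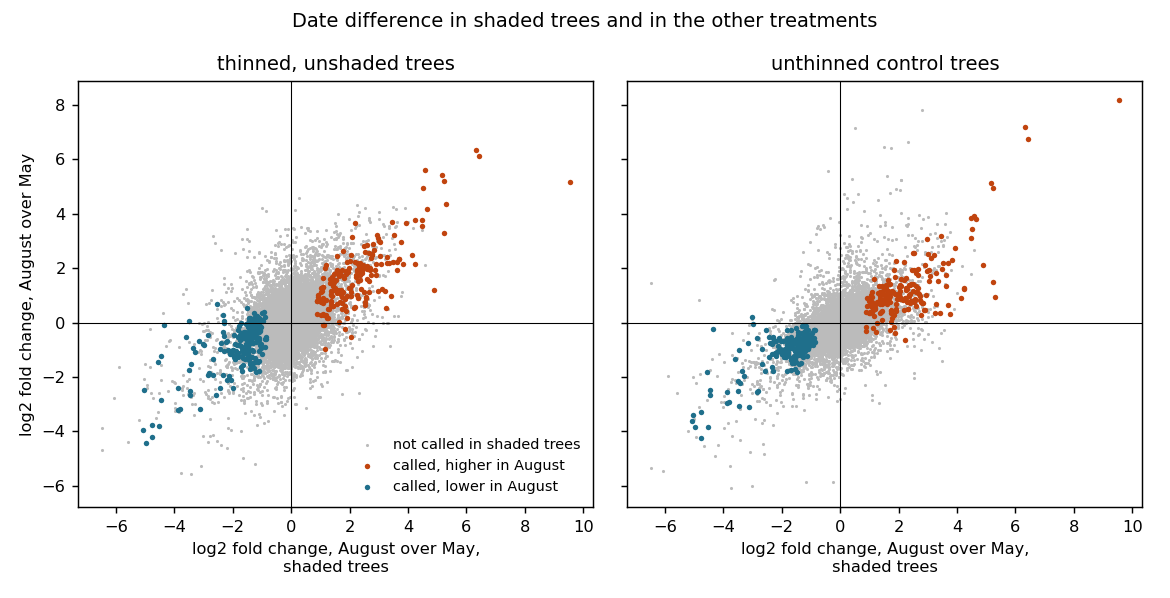
Each point is a tested transcript, with its log2 fold change of August over May in shaded trees on the x axis and in thinned trees without a mesh (left) or control trees (right) on the y axis. Calls of the shaded trees lie mostly in the quadrants of equal sign, 387 of 421 on the left and 412 of 421 on the right.

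Of the calls with separated dates in every treatment, 52 higher and 72 lower ones had a mean of 50 or more on the higher date in shaded trees, and the 4 in each direction with the largest smallest log2 fold change over the 3 treatments are described next. Under that limit on the mean, and chosen after their values had been seen, TRINITY_DN10108_c0_g1 had log2 fold changes of 5.17 in shaded trees, 5.43 in thinned trees without a mesh and 5.14 in control trees, and TRINITY_DN26378_c0_g1 had -4.96, -4.41 and -3.84 in the same order. TRINITY_DN4825_c0_g2, which shares a component with TRINITY_DN4825_c0_g1, was at 157 and 130.1 in August in shaded trees, against 1.46 and 0.313 in May. It was at 243 and 33.9 in August in thinned trees without a mesh, against 0.118 and 0.133 in May, and at 441 and 71.6 in August in control trees, against 0.378 and 0.077 in May. Its log2 fold changes were 6.32, 6.36 and 7.20, and it was called in each treatment (limma adjusted p = 0.025, 0.025 and 0.045). In both other treatments August replicate 1 stood several-fold above replicate 2, which was not the case under the mesh.

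TRINITY_DN15726_c0_g1 was at 548 and 30.2 in August in thinned trees without a mesh, against 0.908 and 6.04 in May. It was at 2169 and 254 in August in control trees, against 2.46 and 0.926 in May. Its date difference was thus several log2 units in every treatment, with August libraries that varied widely outside the shaded trees. TRINITY_DN33358_c0_g1 was at 936 and 507 in August in thinned trees without a mesh, against 31.8 and 5.20 in May, and at 418 and 195 in August in control trees, against 13.0 and 24.3 in May. TRINITY_DN19665_c0_g1 was at 167 and 237 in August in shaded trees, against 5.64 and 8.58 in May (log2 fold change 4.65, SE 0.86), and had log2 fold changes of 4.18 in thinned trees without a mesh and 3.81 in control trees.

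Among the falls that were kept, TRINITY_DN10250_c0_g1 was at 1.59 and 1.82 in August in thinned trees without a mesh, against 22.8 and 105 in May, and at 18.0 and 39.3 in August in control trees, against 389.9 and 702 in May. Control trees were highest on both dates, while the libraries of shaded trees and of thinned trees without a mesh overlapped. This order was not tested. TRINITY_DN4525_c0_g1 was at 5.67 and 12.7 in August in thinned trees without a mesh, against 255 and 68.5 in May. It was at 5.69 and 24.1 in August in control trees, against 111 and 297 in May. TRINITY_DN1186_c1_g2 had log2 fold changes of -5.06 in shaded trees, -3.95 in thinned trees without a mesh and -3.63 in control trees. TRINITY_DN4999_c0_g1 had -4.45, -2.85 and -2.66 in the same order of treatments.

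Other large changes of the shaded trees were smaller elsewhere, but no difference between treatments passed the test. TRINITY_DN3981_c1_g1 was at 35.6 and 31.2 in August in thinned trees without a mesh, against 0 and 1.81 in May, and at 15.4 and 14.1 in August in control trees, against 10.5 and 4.96 in May. TRINITY_DN9091_c1_g1 was at 32.0 and 32.4 in August in thinned trees without a mesh, against 0 and 10.2 in May, and at 13.9 and 17.9 in August in control trees, against 6.27 and 3.85 in May. In both transcripts the May level of control trees was above that of shaded trees. TRINITY_DN323_c0_g1 had log2 fold changes of 4.90 in shaded trees, 1.20 in thinned trees without a mesh and 2.13 in control trees. TRINITY_DN1309_c0_g1 had 2.89, 1.92 and 0.45 in the same order. TRINITY_DN3981_c1_g1, TRINITY_DN9091_c1_g1 and TRINITY_DN323_c0_g1 still separated the dates in the same direction in both other treatments. TRINITY_DN1309_c0_g1 did so in thinned trees without a mesh but not in control trees. In thinned trees without a mesh TRINITY_DN3981_c1_g1 was also called (log2 fold change 4.35; limma adjusted p = 0.023), and no other of the 4 was called in either treatment. The differences from the mean of the other 2 treatments were 2.67, 2.84, 3.24 and 1.70 log2 units for these 4 transcripts (limma adjusted p = 0.74 each).

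Over all 14422 transcripts, 0 date changes of shaded trees differed from the mean of the other treatments (limma, smallest adjusted p 0.19; 934 or 6.48% at an unadjusted p under 0.05). Against thinned trees without a mesh alone there were also 0 (1507 or 10.4% unadjusted), and against control trees alone 0 (632 or 4.38% unadjusted). The 95% interval of such a difference, not adjusted for the number of transcripts, reached a median of 0.916 log2 units to either side against the mean of both. Against either alone it reached 1.06. Changes unlike by less than about that size were not detectable for a typical transcript. Larger differences also missed the adjusted threshold, so the 0 calls do not exclude differences above that size. Without thinning May replicate 1, 36 transcripts differed from the mean of the other treatments and 1868 from thinned trees without a mesh, which then rest on replicate 2 in May; without replicate 2 there were 0.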

How the data were processed

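Per the labels' protocols, poly(A) RNA was read as 150 bp pairs on an Illumina HiSeq. The same text speaks of maritime pine roots, whereas the organism and tissue labels say fir needles. Trimmomatic, RSEM and DESeq2 appear in the submitters' processing notes; how the assembly, scaling and filters were made is not stated in the labels. The authors deposited a signal: after each column is rescaled to a common total, 99.35% or more of each column's nonzero values fell within 0.1 of a step of 0.01 from a whole number of steps, from which the values were taken to be TPM times a factor per library. Columns were matched to samples by description.

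Transcripts at 10 or more in at least 2 of the 4 shaded libraries were tested on log2(value + 1) with limma 3.58.1 (R 4.3.3): 6 group means over 12 libraries, 6 residual degrees of freedom, variances moderated with a trend on the mean, two-sided p-values adjusted by Benjamini-Hochberg within a contrast, calls under 0.05. The shaded libraries alone leave 2 residual degrees of freedom, hence the shared spread. Fold changes understate low transcripts. Named transcripts were, with at most 1 per component in each set: the 5 largest called rises and falls with separated libraries and a mean of 50 or more on the higher date; the 3 most abundant calls in each direction; the 4 in each direction with the largest smallest change over 3 treatments, dates separated in each and a mean of 50 or more on the higher date; up to 3 in each direction whose change differed between treatments, with the same limit on the mean (none qualified); and the 3 with the highest mean on each date. Comparisons and rules were chosen with earlier results of these data known.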

Additional observations from a re-analysis of the deposited data

How the results depend on the processing

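The 421 calls became 63 in the fit of the 4 shaded libraries, 251 with a filter of 50, 0 with no filter, 232 with a filter over all 12 libraries, 722 after quantile normalization, 893 without the library factor, 2085 with array weights and 877 without the 4 thinning libraries, a fit chosen after seeing the data. Leaving out 1 library gave 0 to 1343 calls. The share of calls higher in August was 52.4% in the 4-library fit, 34.7% with a filter of 50 and 83.3% without the library factor, and 41.9% to 49.6% without 1 library. The share of calls that separated the dates in both other treatments was 60.3% in the 4-library fit and 57.0% with a filter of 50. It was 82.8% with a filter over all 12 libraries, 65.9% after quantile normalization, 47.0% with array weights and 54.3% without the thinning libraries. It was 51.5% to 87.6% without 1 library of the other treatments. There the date that lost a library was judged on its remaining library, an easier rule, so that range is not comparable with the other shares. Differences between treatments numbered 2 with a filter of 50 and 0 to 36 without 1 library. With no filter 195603 transcripts were tested, 11779 of them at an unadjusted p under 0.05; the cause of the other shifts was not tested. Pseudocounts of 0.5 and 8 gave 419 and 515 calls.

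With treatment and replicate number as a replicate block, 0 transcripts were called in shaded trees (limma; 2460 at an unadjusted p under 0.05). Nothing in the labels makes a number a pair: differences between replicates 1 and 2 correlated over dates at 0.168 in shaded, 0.128 in thinning and -0.242 in control trees. Of the 21 named transcripts, TRINITY_DN7298_c0_g1 turned to 0.35 after quantile normalization, and TRINITY_DN1262_c0_g2, not called, to 0.92 after quantile normalization, 0.28 without the library factor and -0.14 to 0.022 without 1 shaded August library; the other 19 kept their direction under every alternative.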

Other observations

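The 9 calls of shaded trees that separated the dates in the same direction in neither other treatment are described here by 5 of them, named after their values had been seen. Over all 14422 tested transcripts, 6353 did so in neither. TRINITY_DN1614_c1_g2 was listed at 0 and at 2.80 in August in shaded trees, against 48.0 and 30.7 in May (log2 fold change -4.34, SE 0.80; limma adjusted p = 0.036). It stood at 26.7 and 14.7 in August in thinned trees without a mesh, against 25.0 and 17.4 in May, and at 9.76 and 6.73 in August in control trees, against 22.0 and 3.92 in May. TRINITY_DN1730_c0_g1 was at 2.60 and 1.77 in August in shaded trees, against 27.1 and 22.6 in May, with a log2 fold change of -0.79 in thinned trees without a mesh and 0.20 in control trees. TRINITY_DN4683_c0_g1 was at 45.3 and 34.8 in August in shaded trees, against 2.84 and 3.71 in May (log2 fold change 3.26, SE 0.69), and TRINITY_DN4683_c0_g2 of the same component had a like profile, at 46.5 and 34.4 in August and 3.71 and 2.18 in May. TRINITY_DN162_c0_g2 was at 35.9 and 38.7 in August in shaded trees, against 8.13 and 10.8 in May. For none of the 9 did the difference from the other treatments pass the test (limma adjusted p = 0.74 each).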
